A study of Homo sapiens with 30 samples.

Results

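The genes described here are 38 genes of protein folding in the endoplasmic reticulum (ER), of ER-associated degradation and of unfolded protein sensing. They were chosen by name, with no measured value in the rule but with earlier results of these data known. All 38 were found among the 30373 genes of the deposited table. They fall into 6 roles. Sensors and transcription factors number 7, HSP70 and HSP90 chaperones with their partners 7, lectin chaperones 3, protein disulfide isomerases 6, degradation genes 10, and translocation, export and membrane genes 5. Their mRNA was measured by RNA sequencing in 30 libraries of 3 human cancer lines, HCT116 and COLO205 from colorectal carcinoma and MDAMB231 from breast carcinoma, with 3 libraries in each of 10 groups. ML-792 inhibits the SUMO-activating enzyme, which starts the attachment of the small protein SUMO to other proteins. For 16 h, cells of each line received ML-792 at 500 nM or its vehicle, DMSO at 0.01%. For 3.5 h, HCT116 cells received ML-792 with heat shock, DMSO with heat shock, ML-792 alone or DMSO alone. Heat shock meant 0.5 h at 43 °C after 2 h of pre-treatment, followed by recovery for 1 h at 37 °C, with drug or vehicle present throughout. No group was left without drug or vehicle. Colorectal carcinoma is represented by 2 lines and breast carcinoma by 1, so a difference between lines is one between these cells.

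The ER folds and modifies secreted and membrane proteins. When unfolded proteins build up there, the sensor proteins encoded by ERN1 (IRE1), EIF2AK3 (PERK) and ATF6 start the unfolded protein response. IRE1 splices the mRNA of the transcription factor XBP1, ATF6 is cut in the Golgi to release a transcription factor, and PERK slows translation and favours the factor ATF4. Spliced XBP1 and cut ATF6 act on ER stress elements in the promoters of chaperone and degradation genes. The deposited values sum all transcripts of a gene, so the spliced form of XBP1 was not measured here, and neither was any protein.

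RefSeq promoter windows of GRCh38.p14, the 250 bases before the annotated start, were matched by symbol for 34 of the 38 genes. DERL1, DERL3, PDIA3 and SEC24D had no entry in that table. The ER stress element ERSE, which is CCAAT and CCACG with any 9 bases between them, searched on both strands, stood in 7 of the 34 members (20.6%), which were CALR, CANX, CRELD2, HSP90B1, HSPA5, PDIA6 and XBP1. It stood in 25 of the 27305 genes with a window (0.0916%). The shorter ERSE-II, which is ATTGG and CCACG with 1 base between them, stood in HERPUD1, HYOU1 and SDF2L1 (8.82% of members), against 18 of all genes (0.0659%). The core TGACGTGG of the unfolded protein response element stood in HYOU1 and TXNDC5 (5.88% of members), against 0.78% of all genes. In HYOU1 it overlapped an ERSE-II. A heat shock element, searched as GAA, TTC and GAA with 2 bases between each, was in none of the 34 windows and in 152 of all genes (0.557%). These are matches of letters, not measured binding. The ER stress motifs are textbook patterns of this response and the members were chosen by name for it. Their shares are thus a description and not a test. Windows are printed for 6 of the members that carry an ERSE or ERSE-II. They include the HSP70 and HSP90 of the ER (HSPA5, HSP90B1), the lectin chaperone CALR and the transcription factor XBP1. The degradation gene HERPUD1 and the large HSP70 relative HYOU1 complete them. Windows of the sensors EIF2AK3, ATF6 and ERN1 held none of these motifs and are not printed. Capitals mark the fixed letters of ERSE in HSPA5, HSP90B1, CALR and XBP1, of ERSE-II in HERPUD1, and of ERSE-II and the overlapping core in HYOU1. The windows lie at chr9:125241344-125241593 on the minus strand (HSPA5), chr12:103930160-103930409 on the plus strand (HSP90B1), chr19:12938359-12938608 on the plus strand (CALR), chr22:28800570-28800819 on the minus strand (XBP1, the upstream of its 2 annotated starts), chr16:56931892-56932141 on the plus strand (HERPUD1) and chr11:119057206-119057455 on the minus strand (HYOU1), each written 5′ to 3′ on the gene's strand.
HSPA5: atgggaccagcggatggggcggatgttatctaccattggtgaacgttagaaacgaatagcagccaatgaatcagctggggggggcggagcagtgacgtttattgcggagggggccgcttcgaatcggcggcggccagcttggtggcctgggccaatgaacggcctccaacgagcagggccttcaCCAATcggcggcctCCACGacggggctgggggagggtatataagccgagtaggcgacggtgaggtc
HSP90B1: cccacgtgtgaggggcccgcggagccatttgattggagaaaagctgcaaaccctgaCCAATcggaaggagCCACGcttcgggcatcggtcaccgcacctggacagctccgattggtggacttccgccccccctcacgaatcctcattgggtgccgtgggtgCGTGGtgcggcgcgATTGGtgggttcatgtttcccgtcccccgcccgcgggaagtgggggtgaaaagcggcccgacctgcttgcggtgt
CALR: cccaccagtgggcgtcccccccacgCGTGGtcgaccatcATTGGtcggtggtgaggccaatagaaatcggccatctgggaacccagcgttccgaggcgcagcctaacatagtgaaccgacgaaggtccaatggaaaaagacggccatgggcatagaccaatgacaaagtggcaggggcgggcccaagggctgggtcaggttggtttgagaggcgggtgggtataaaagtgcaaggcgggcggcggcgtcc
XBP1: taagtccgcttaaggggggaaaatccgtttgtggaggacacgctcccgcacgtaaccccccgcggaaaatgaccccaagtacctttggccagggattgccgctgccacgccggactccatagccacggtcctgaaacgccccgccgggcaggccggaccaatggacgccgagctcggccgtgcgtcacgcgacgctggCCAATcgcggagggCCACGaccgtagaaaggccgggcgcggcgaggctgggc
HERPUD1: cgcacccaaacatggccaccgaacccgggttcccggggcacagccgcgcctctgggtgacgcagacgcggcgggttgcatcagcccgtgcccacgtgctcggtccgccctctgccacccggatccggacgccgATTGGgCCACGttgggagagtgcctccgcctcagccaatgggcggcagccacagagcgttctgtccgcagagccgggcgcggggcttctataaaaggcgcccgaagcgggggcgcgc
HYOU1: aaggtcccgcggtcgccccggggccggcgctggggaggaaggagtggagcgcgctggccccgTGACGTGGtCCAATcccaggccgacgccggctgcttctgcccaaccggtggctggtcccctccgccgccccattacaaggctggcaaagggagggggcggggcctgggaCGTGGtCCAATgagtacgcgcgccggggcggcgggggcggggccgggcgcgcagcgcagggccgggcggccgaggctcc

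Values are the deposited FPKM, fragments scaled to gene length and library depth. A change is a difference of mean log2(FPKM + 1) with its standard error (SE), n = 3 libraries a group, and a gene counts as higher or lower where limma's adjusted p over all genes tested was below 0.05. The pseudocount of 1 makes the change of a low gene look smaller than it is. Over the whole table, 11535 to 12323 genes a library reached 1 FPKM, and replicates correlated at 0.996 to 0.999 (Pearson's r). No library repeated another of its group. The table holds no counts. A depth of 27.2 to 35.1 M fragments at 16 h, 38.2 to 56.9 M with heat shock and 48.5 to 75.6 M at 3.5 h without it was estimated from the smallest steps of the values, so it is approximate. COLO205 had 7 of 9 colorectal epithelial markers at 1 FPKM or more (CDX2 and KRT20 were below), and HCT116 had 5 of 9, with CDX1 and VIL1 at or near 0. MDAMB231 had 3 of the 9 (EPCAM, KRT8 and KRT18). MDAMB231 and HCT116 at 16 h had all 7 mesenchymal markers at 1 FPKM or more. These summed to 1562 to 1879 FPKM in MDAMB231 and 278 to 321 FPKM in HCT116. Of 4 breast luminal markers, MDAMB231 had GATA3 at 2.02 to 3.3 FPKM, and ESR1, PGR and FOXA1 at or near 0. The third ML-792 library of COLO205 stood apart in its group. ERN1 was 2.16 FPKM in it, against 7.68 and 5.24 FPKM in the others of the group. Some stress genes listed as downstream of PERK were low in it too. Results that turn on this library are given with and without it.

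In COLO205, ER chaperones of nearly every kind were more abundant after 16 h of ML-792. Of the 38 genes, 28 were higher and 1 was lower than in DMSO. Of the 14251 genes tested at 16 h, 37% changed, 19.4% higher and 17.7% lower. The members' median change was 0.256 on the log2 scale, and the median over all genes tested was 0.005. In bulk RNA, a change in how many cells express a gene and a change in its RNA per cell cannot be told apart. Higher genes were 6 of 7 HSP70 and HSP90 chaperones and partners, 3 of 3 lectin chaperones, 6 of 6 disulfide isomerases, 7 of 10 degradation genes, 4 of 5 translocation and export genes, and 2 of 7 sensors and transcription factors. The third ML-792 library had the highest HSPA5, HSP90B1 and PDIA4 of its group. Without it, 28 members were higher and 2 were lower, and the members' median was 0.214.

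**Figure D1:**
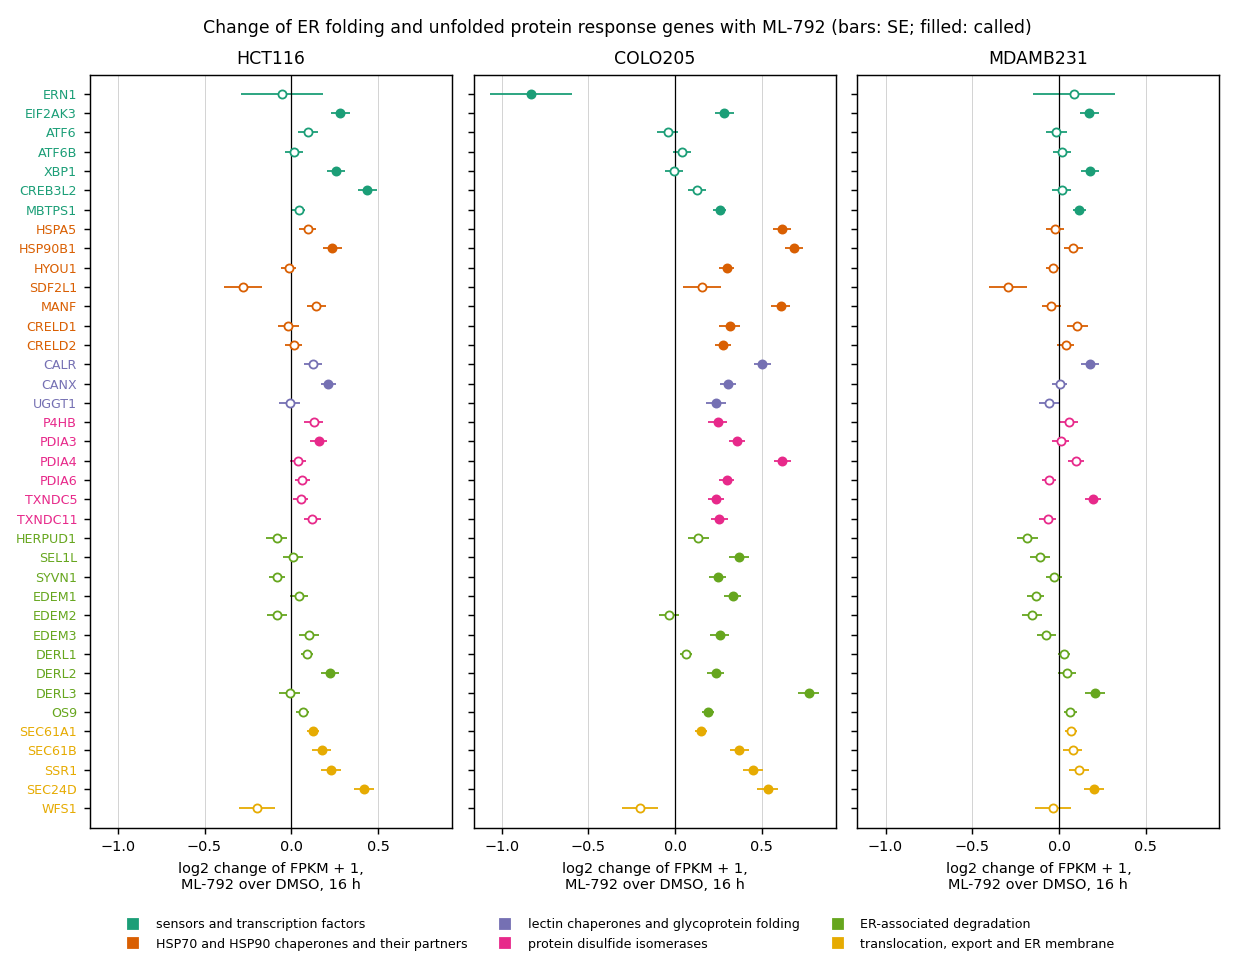
Change of each member in ML-792 over DMSO at 16 h in HCT116, COLO205 and MDAMB231, as log2(FPKM + 1) differences with bars of 1 SE, coloured by role, with filled points for genes past the adjusted p threshold. Filled points number 11 in HCT116, 29 in COLO205 and 7 in MDAMB231, and ERN1 in COLO205 is the only filled point below 0.

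Among the sensors of COLO205, PERK and IRE1 transcripts moved in opposite directions. EIF2AK3 stood at 7.12, 6.84 and 6.93 FPKM with ML-792, against 5.47, 5.29 and 5.89 FPKM with DMSO, and was higher by 0.28 ± 0.06 (adjusted p = 0.00062). The groups did not overlap. ERN1 stood at 7.68, 5.24 and 2.16 FPKM with ML-792, against 9.36, 9.25 and 8.05 FPKM with DMSO, and was lower (-0.83 ± 0.24, adjusted p = 0.013). All 3 ML-792 libraries lay below the DMSO libraries, but they spread widely. The ERN1 change was -0.42 (adjusted p = 0.0042) without the third ML-792 library, and with only the COLO205 groups in the fit it did not pass (adjusted p = 0.189). XBP1, the target of IRE1, was 143, 156 and 157 FPKM with ML-792 and 142, 156 and 159 FPKM with DMSO, with overlapping groups and a change of -0.01 ± 0.05 (adjusted p = 0.97). ATF6 was 11.3, 9.76 and 9.35 FPKM with ML-792, against 10.9, 10.3 and 10.2 FPKM with DMSO, again with overlap (-0.04 ± 0.06, adjusted p = 0.63). MBTPS1, the protease that makes the first cut in ATF6, was higher by 0.26. CREB3L2, a membrane-bound factor of the same kind as ATF6, did not pass (0.13 ± 0.05, adjusted p = 0.074).

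The main ER chaperones of COLO205 were among the most abundant members and had some of their largest changes. HSPA5 encodes BiP, the ER HSP70 that holds unfolded chains. It stood at 663, 708 and 797 FPKM with ML-792, against 456, 464 and 491 FPKM with DMSO. Every ML-792 library lay above every DMSO library, the ratio of means was 1.54, and the change was 0.61 ± 0.05 (adjusted p = 5.8e-08). HSP90B1, the ER HSP90 also known as GRP94, stood at 838, 892 and 997 FPKM with ML-792, against 562, 555 and 574 FPKM with DMSO. Again the groups were apart, with a ratio of means of 1.61 and a change of 0.69 ± 0.05 (adjusted p = 2.6e-08). MANF, a secreted ER stress protein that binds BiP, was 143, 156 and 167 FPKM with ML-792 and 98.1, 96.3 and 109.8 FPKM with DMSO (0.61 ± 0.06, adjusted p = 1.7e-07). These groups did not overlap either. HYOU1 was higher by 0.30, CRELD1 by 0.31 and CRELD2 by 0.28. SDF2L1, a BiP partner, was the member of this role that did not pass.

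The lectin chaperones and disulfide isomerases of COLO205 were all higher. CALR, the calcium-binding lectin calreticulin, stood at 547, 587 and 631 FPKM with ML-792, against 401, 409.6 and 432 FPKM with DMSO, without overlap (0.50 ± 0.05, adjusted p = 8e-07). CANX, its membrane-bound relative, was higher by 0.30, and UGGT1, which tags misfolded glycoproteins for another round of folding, by 0.23. PDIA4, an isomerase that makes and rearranges disulfide bonds, stood at 270.5, 289 and 315 FPKM with ML-792, against 182, 190.4 and 195 FPKM with DMSO. The groups were apart and the change was 0.62 ± 0.05 (adjusted p = 1.8e-08). The other isomerases were higher by 0.23 (TXNDC5) to 0.36 (PDIA3).

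Of the degradation genes, which send misfolded proteins back to the cytosol, DERL3 had the largest change in COLO205 at a low level. It stood at 1.56, 1.73 and 1.91 FPKM with ML-792, against 0.67, 0.572 and 0.567 FPKM with DMSO (0.77 ± 0.06, adjusted p = 2.7e-08). Its groups were apart, and on the FPKM scale the ratio of means was 2.88. DERL3 was below 1 FPKM in DMSO and passed the filter only through COLO205 with ML-792 and MDAMB231. SEL1L and SYVN1, which form the core of the HRD1 ubiquitin ligase, were higher by 0.37 and 0.24. EDEM1 and EDEM3, mannosidase-family proteins that mark glycoproteins for removal, were higher by 0.33 and 0.26. HERPUD1, an organiser of that ligase, stood at 122, 129 and 146 FPKM with ML-792, against 113, 118 and 130.5 FPKM with DMSO, with overlap and no call (0.13 ± 0.06, adjusted p = 0.098). Among export genes, SEC24D, a cargo-binding coat protein of vesicles that leave the ER, stood at 22.6, 24.3 and 27.3 FPKM with ML-792, against 16.5, 16.7 and 17.1 FPKM with DMSO, without overlap (0.53 ± 0.06). SSR1 and SEC61B, which belong to the channel complex through which chains enter the ER, were higher by 0.45 and 0.37.

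In HCT116, 16 h of ML-792 was followed by smaller changes, and BiP was not among the genes called. Of the 38 members, 11 were higher and none was lower, where 14.7% of all genes changed, 8.32% higher and 6.42% lower. The members' median change was 0.078, against 0.003 over all genes tested. Without the second ML-792 library 7 members were called, and the count over all genes ran from 1180 to 2822 with single HCT116 libraries left out, in place of 2101. HSPA5 stood at 266, 272 and 272 FPKM with ML-792, against 257, 256 and 247 FPKM with DMSO. The groups did not overlap, but the change was 0.09 ± 0.05 and did not pass (adjusted p = 0.24). HSP90B1 stood at 522, 549 and 558 FPKM with ML-792, against 469, 473 and 439 FPKM with DMSO, without overlap, and was higher (0.24 ± 0.05, adjusted p = 0.0058). CREB3L2 stood at 13.3, 13.8 and 14 FPKM with ML-792, against 9.95, 9.92 and 9.69 FPKM with DMSO. It had the largest change among the members in this line (0.44 ± 0.05, adjusted p = 2.3e-05), with all ML-792 libraries above the others. SEC24D followed, at 13.9, 14.4 and 15.1 FPKM with ML-792, against 10.8, 10.9 and 10 FPKM with DMSO (0.42 ± 0.06, adjusted p = 9.6e-05). Here too the groups were apart.

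Of the sensors and transcription factors of HCT116, EIF2AK3 and XBP1 were higher beside CREB3L2. EIF2AK3 stood at 3.99, 4.04 and 4.55 FPKM with ML-792, against 3.41, 3.1 and 3.32 FPKM with DMSO (0.28 ± 0.06, adjusted p = 0.002), and XBP1 at 34.8, 36.1 and 37.6 FPKM with ML-792, against 31.1, 29.8 and 29.3 FPKM with DMSO (0.26 ± 0.05, adjusted p = 0.0024). Neither gene's groups overlapped. ERN1 was 2.11, 1.92 and 2.09 FPKM with ML-792, against 2.36, 2.18 and 1.92 FPKM with DMSO (-0.05 ± 0.24, adjusted p = 0.94), and ATF6 7.08, 7.46 and 7.83 FPKM with ML-792, against 7.1, 6.86 and 6.74 FPKM with DMSO (0.10 ± 0.06, adjusted p = 0.3). Both overlapped between groups. HERPUD1 was 28, 28.3 and 29.2 FPKM with ML-792 and 31.2, 28.9 and 30.6 FPKM with DMSO, with overlap (-0.08 ± 0.06, adjusted p = 0.4). The rest of the higher genes were SSR1, DERL2, CANX, SEC61B, PDIA3 and SEC61A1, with changes of 0.13 to 0.23. Of the 11 calls, 8 held under 3 scalings of the libraries (the deposited FPKM, median-of-ratios and equal totals).

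In MDAMB231 after 16 h of ML-792, neither HSPA5 nor HSP90B1 was called. Of the 38 members, 7 were higher and none was lower, where 16.9% of all genes changed, 8.38% higher and 8.48% lower. The members' median change was 0.022, against 0 over all genes tested. Equal totals gave 5 higher and 3 lower members, and median-of-ratios 7 and 1. HSPA5 stood at 298, 313 and 316 FPKM with ML-792, against 318, 311 and 311 FPKM with DMSO, and HSP90B1 at 393, 426 and 433 FPKM with ML-792, against 399, 395 and 387 FPKM with DMSO. Both overlapped between groups, with changes of -0.02 ± 0.05 (adjusted p = 0.84) and 0.08 ± 0.05 (adjusted p = 0.35). TXNDC5, a disulfide isomerase, stood at 140.1, 131 and 132 FPKM with ML-792, against 118, 116 and 118 FPKM with DMSO. Its groups were apart and it was higher by 0.20 ± 0.04 (adjusted p = 0.0053). CALR was 749, 675 and 693 FPKM with ML-792, against 614, 612 and 640.1 FPKM with DMSO, without overlap (0.18 ± 0.05, adjusted p = 0.022).

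Among the other called genes of MDAMB231, DERL3 stood at 1.59, 1.44 and 1.26 FPKM with ML-792, against 0.957, 1.25 and 1.11 FPKM with DMSO (0.21 ± 0.06, adjusted p = 0.024). SEC24D stood at 26.1, 28.3 and 29.3 FPKM with ML-792, against 24.2, 24 and 24.2 FPKM with DMSO (0.20 ± 0.06, adjusted p = 0.024). XBP1 stood at 32.8, 34 and 36.4 FPKM with ML-792, against 30.9, 29.8 and 30 FPKM with DMSO (0.18 ± 0.05, adjusted p = 0.024). None of these groups overlapped. EIF2AK3 stood at 4.33, 4.86 and 4.76 FPKM with ML-792, against 4.2, 3.97 and 3.87 FPKM with DMSO (0.17 ± 0.06, adjusted p = 0.038), also without overlap, and MBTPS1 was higher by 0.12 ± 0.04 (adjusted p = 0.048). HERPUD1 was 19.1, 21 and 19.8 FPKM with ML-792, against 22.1, 22.7 and 23.6 FPKM with DMSO (-0.18 ± 0.06, adjusted p = 0.051). All its ML-792 libraries lay below the DMSO libraries, but it did not pass. ERN1 and ATF6 were not called: ERN1 was 1.23, 1.17 and 1.19 FPKM with ML-792 and 1.07, 1.1 and 1.04 FPKM with DMSO, and ATF6 9.3, 9.79 and 10.2 FPKM with ML-792 and 10.1, 9.46 and 10.1 FPKM with DMSO. With any 1 of the 6 MDAMB231 libraries left out, 2 to 5 members were called in place of 7; TXNDC5 was kept each time.

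**Figure D2:**
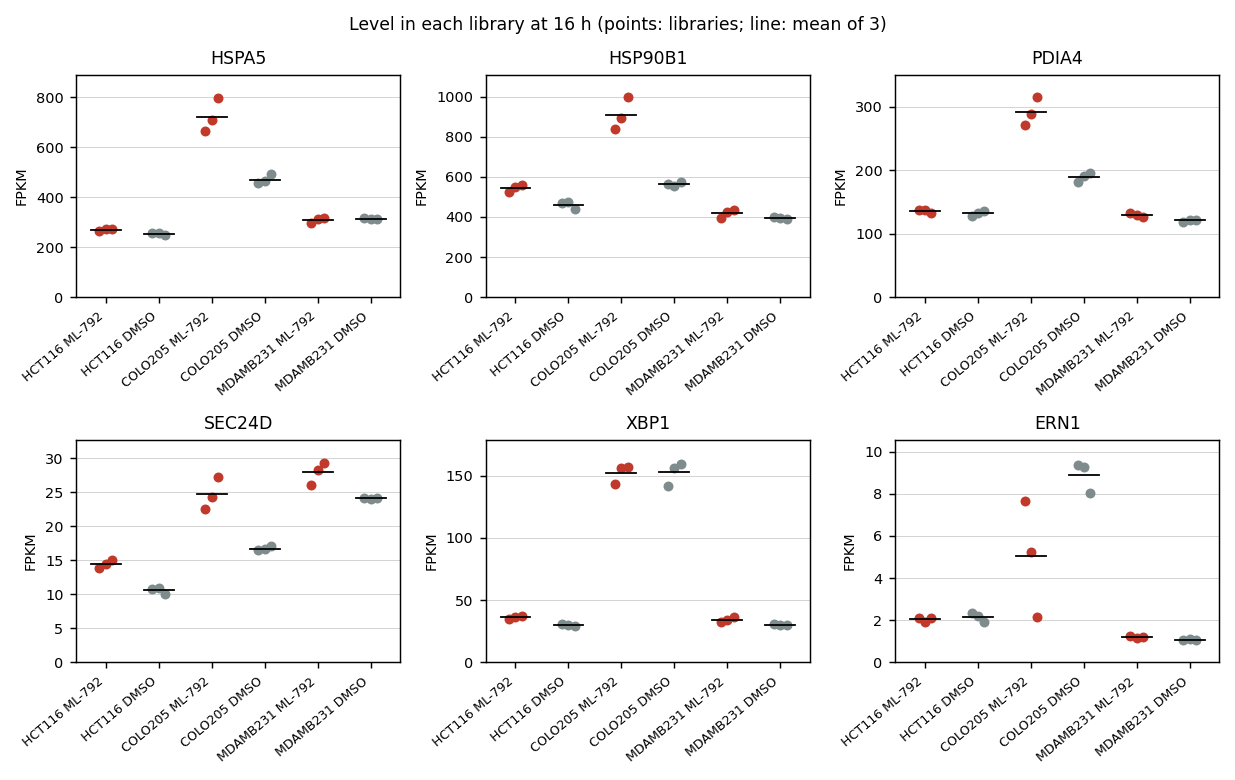
FPKM of HSPA5, HSP90B1, PDIA4, SEC24D, XBP1 and ERN1 in each 16 h library of the 3 lines, ML-792 left of DMSO, each point 1 library and each line the mean of 3. In COLO205 the ML-792 points of HSPA5, HSP90B1, PDIA4 and SEC24D lie above all DMSO points, XBP1 overlaps, and ERN1 spreads between 2.16 and 7.68 FPKM with ML-792.

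EIF2AK3 and SEC24D were higher in all 3 lines. In MDAMB231 the call of SEC24D was lost without any of 5 of the 6 libraries (adjusted p = 0.0615 to 0.107), and that of EIF2AK3 without any of 4 (adjusted p = 0.107 to 0.151), with equal totals or with only the groups compared. Of the genes higher in HCT116, 9 were also higher in COLO205, which is 81.8% of the HCT116 genes and 32.1% of the COLO205 genes. MDAMB231 and COLO205 shared 6, which is 85.7% of the MDAMB231 genes and 21.4% of the COLO205 genes. With 28 of the 38 members higher in COLO205, large overlaps can arise from that count alone. Overlaps were not counted over all genes. The lines have separate controls. The difference between the lines was tested as an interaction. Against HCT116, the change in COLO205 was larger for 15 members and smaller for 2, where 19.4% of all genes differed, 9.66% higher and 9.75% lower. DERL3 differed by 0.78 ± 0.09 (adjusted p = 4.6e-06), with DERL3 in HCT116 at 0.0235, 0 and 0 FPKM with ML-792 and 0.0285, 0.0109 and 0 FPKM with DMSO. With HCT116 at or near 0, this difference restates the change of DERL3 in COLO205. PDIA4 differed by 0.58 ± 0.07 (adjusted p = 7.1e-06) and was 137, 137 and 133 FPKM with ML-792 and 128, 133 and 135 FPKM with DMSO in HCT116. HSPA5 differed by 0.52 ± 0.07 (adjusted p = 6.4e-05). The 2 genes with a smaller change in COLO205 were the factors XBP1 (-0.26 ± 0.07, adjusted p = 0.017) and CREB3L2 (-0.31 ± 0.08, adjusted p = 0.0076).

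Against MDAMB231, the change in COLO205 was larger for 22 members and smaller for none, where 26% of all genes differed, 14% higher and 12% lower. These held 6 of 7 HSP70 and HSP90 genes, 3 of 3 lectins and no sensor or transcription factor. MANF (0.65 ± 0.08, adjusted p = 9.9e-06), HSPA5 (0.64 ± 0.07, adjusted p = 5.6e-06) and HSP90B1 (0.60 ± 0.07, adjusted p = 1.6e-05) differed most. MANF in MDAMB231 was 87.3, 82.7 and 89.8 FPKM with ML-792 and 88.4, 87.9 and 91.7 FPKM with DMSO. MDAMB231 differed from HCT116 in 2 members, where 10.8% of all genes differed, 4.93% higher and 5.84% lower. The change of CREB3L2 was smaller in MDAMB231 (-0.42 ± 0.08, adjusted p = 0.0012), where it was 22, 23.5 and 25.1 FPKM with ML-792 and 24.1, 22.7 and 23 FPKM with DMSO. CANX also had a smaller change (-0.21 ± 0.06, adjusted p = 0.041), with 213, 228 and 229 FPKM with ML-792 and 226, 221 and 221 FPKM with DMSO in MDAMB231, and 189, 199 and 207 FPKM with ML-792 and 177, 171 and 165 FPKM with DMSO in HCT116.

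The 57 other genes of the ER pathway moved in both directions. In COLO205, 30 were higher and 6 were lower with ML-792, where 37% of all genes changed, 19.4% higher and 17.7% lower. Higher genes were 11 of 16 in the translocon list, 6 of 9 in the export and retrieval list, 4 of 7 DNAJ cochaperones of BiP, 4 of 9 oxidation and isomerase genes and 4 of 9 further degradation genes. They included ERO1LB, an oxidase that recharges disulfide isomerases (0.87 ± 0.07), the membrane-bound factor CREB3L1 (0.76 ± 0.06), the ubiquitin-conjugating enzyme UBE2J1 (0.56 ± 0.04) and DNAJC3 (0.52 ± 0.06) and DNAJB9 (0.51 ± 0.06), both BiP cochaperones. In the list downstream of PERK, 1 of 7 was higher and 3 were lower. The lower genes were the stress factor ATF3 (-1.12 ± 0.31, adjusted p = 0.012), the pseudokinase TRIB3 (-0.85 ± 0.23, adjusted p = 0.011) and CHAC1, which breaks down glutathione (-0.64 ± 0.14, adjusted p = 0.0024). TRIB3 was 199, 185 and 81.2 FPKM with ML-792, against 253, 271 and 261 FPKM with DMSO. Every ML-792 library was below the DMSO libraries, the third by far the most. Without that library, TRIB3 changed by -0.44 (adjusted p = 0.00019), ATF3 by -0.56 (adjusted p = 3.5e-05) and CHAC1 by -0.74 (adjusted p = 0.0018). DDIT3, which encodes CHOP, was 216, 192 and 91.8 FPKM with ML-792, against 159.9, 173 and 173 FPKM with DMSO. It was not called with the third library (-0.11, adjusted p = 0.75) and was higher without it (0.27, adjusted p = 0.0026). The list as a whole had 27 higher and 6 lower without that library.

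Of the same 57 genes, 11 were higher and 1 was lower in HCT116 with ML-792, and 6 were higher and 1 was lower in MDAMB231. Over all genes, 14.7% changed in HCT116 (8.32% higher) and 16.9% in MDAMB231 (8.38% higher). In HCT116 the lower gene was CHAC1 (-0.54 ± 0.14), at 8.88, 9 and 8.73 FPKM with ML-792, against 11.6, 12.6 and 16.2 FPKM with DMSO, which did not overlap. DNAJC1 (0.36), SEC24A (0.33) and SSR3 (0.31) were higher there.

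The lines differed in ER gene levels in vehicle. In DMSO at 16 h, COLO205 had the highest mean of 26 members, MDAMB231 of 10 and HCT116 of 2. The same count was not made over all genes, so it has no background. Together the 38 genes made up a median of 0.877% of summed FPKM in COLO205 with DMSO, 0.711% in MDAMB231 and 0.61% in HCT116, and with ML-792 1.14%, 0.74% and 0.647%. Against HCT116, COLO205 had 29 members higher and 4 lower, where 84.9% of all genes differed, 39.4% higher and 45.5% lower. The share of members that differed in either direction is thus near the background. XBP1 was 142, 156 and 159 FPKM in COLO205, against 31.1, 29.8 and 29.3 FPKM in HCT116, a ratio of means of 5.08 (2.30 ± 0.05, adjusted p = 7.3e-18). HERPUD1 was 113, 118 and 130.5 FPKM in COLO205, against 31.2, 28.9 and 30.6 FPKM in HCT116 (1.96 ± 0.06, adjusted p = 1.1e-15). WFS1, an ER membrane protein whose loss causes Wolfram syndrome, was 51.4, 51.5 and 54.9 FPKM in COLO205, against 8.87, 10.2 and 10.5 FPKM in HCT116 (2.31 ± 0.10, adjusted p = 6.4e-13). All 3 genes were far apart between the lines. ERN1 (1.65 ± 0.24) and CREB3L2 (1.30 ± 0.05) were also higher in COLO205, and MBTPS1 (-0.70), SSR1 (-0.25), TXNDC5 (-0.24) and CRELD2 (-0.18) were lower.

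**Figure D3:**
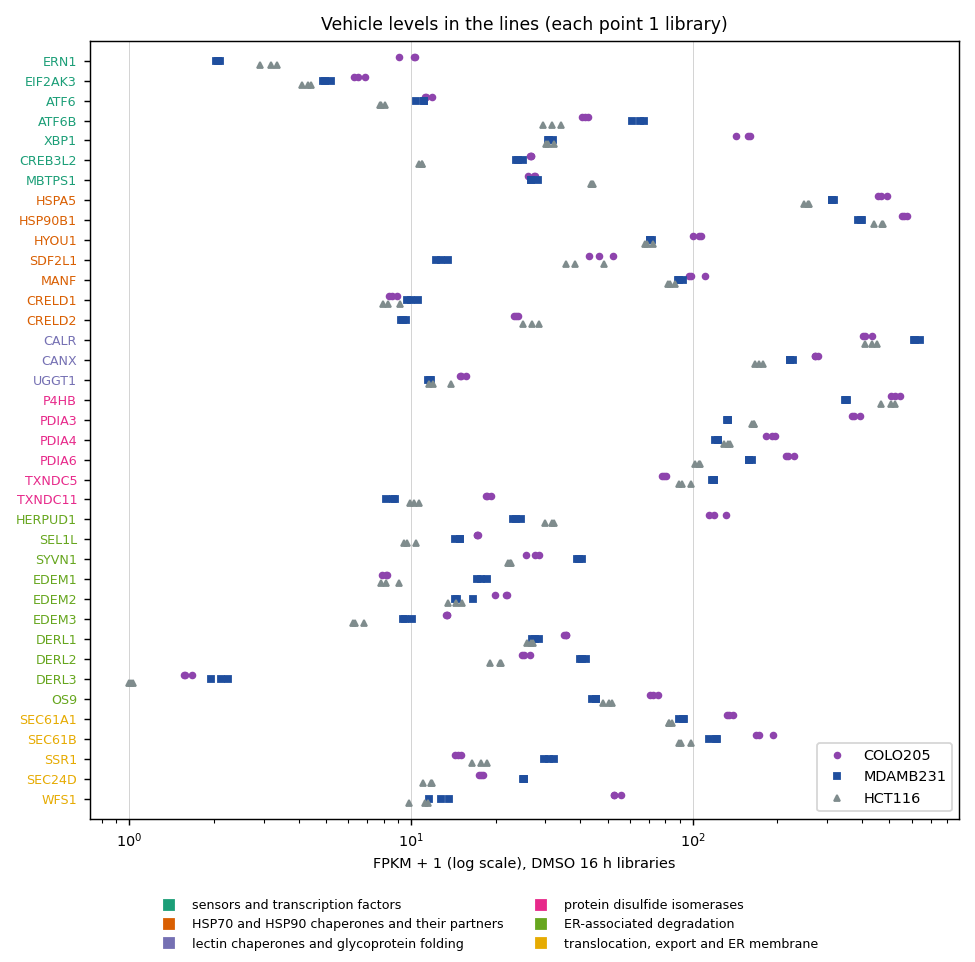
Level of each member in the DMSO libraries at 16 h, as FPKM + 1 on a log axis, with COLO205 as circles, MDAMB231 as squares and HCT116 as triangles, each point 1 library. XBP1, HERPUD1, WFS1 and ERN1 stand highest in COLO205, and SDF2L1 and CRELD2 lowest in MDAMB231.

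Against HCT116, MDAMB231 had 20 members higher and 11 lower in DMSO, where 83.6% of all genes differed, 38.1% higher and 45.5% lower. The split was 26 to 8 with median-of-ratios scaling and 26 to 7 with equal totals. SDF2L1 was 11.3, 11.8 and 12.6 FPKM in MDAMB231, against 34.4, 37.4 and 47.5 FPKM in HCT116 (-1.65 ± 0.11, adjusted p = 2.7e-10). CRELD2, which is induced by ER stress, was 8.37, 8.22 and 8.61 FPKM in MDAMB231, against 24.1, 25.9 and 27.6 FPKM in HCT116 (-1.51 ± 0.05, adjusted p = 1.8e-15). Both were apart between the lines. CREB3L2 (1.16 ± 0.05), SEC24D (1.12 ± 0.06) and EDEM1 (1.099 ± 0.05) were higher in MDAMB231. EDEM1 was 17.7, 16.8 and 16.1 FPKM there and 8.07, 6.83 and 7.14 FPKM in HCT116. Against MDAMB231, COLO205 had 26 members higher and 10 lower, where 86.4% of all genes differed, 44.5% higher and 41.9% lower. HERPUD1 (2.35 ± 0.06), XBP1 (2.30 ± 0.05), ERN1 (2.25 ± 0.24), WFS1 (2.08 ± 0.10) and SDF2L1 (1.87 ± 0.11) were higher in COLO205, and EDEM1 (-1.14) and SSR1 (-1.07) were lower. WFS1 was 51.4, 51.5 and 54.9 FPKM in COLO205, against 10.6, 12.7 and 11.8 FPKM in MDAMB231, and SDF2L1 41.9, 45.6 and 51.1 FPKM in COLO205, against 11.3, 11.8 and 12.6 FPKM in MDAMB231. The lines were apart in both genes.

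After 3.5 h of ML-792 without heat shock, 2 of the 37 members tested in HCT116 were higher and none was lower, where 1.21% of all genes changed, 1.02% higher and 0.189% lower. DERL3, at or near 0 in HCT116, was not tested at this time. CREB3L2 stood at 7.57, 7.89 and 8.41 FPKM with ML-792, against 5.56, 5.98 and 5.5 FPKM with DMSO (0.42 ± 0.07, adjusted p = 0.0067). XBP1 stood at 34.5, 34.1 and 36.6 FPKM with ML-792, against 27.3, 28.1 and 27.5 FPKM with DMSO (0.33 ± 0.07, adjusted p = 0.039). In both genes every ML-792 library lay above every DMSO library. HSPA5 was 428, 449 and 454 FPKM with ML-792 and 365, 382 and 373 FPKM with DMSO, apart too, but it did not pass (0.25 ± 0.07, adjusted p = 0.14). With only these groups in the fit, 9 members were called. The call of XBP1 was lost when any of the 6 libraries was left out (adjusted p = 0.108 to 0.207), and that of CREB3L2 with equal totals (adjusted p = 0.112) or without the third ML-792 library (adjusted p = 0.051). Limma called none of the 56 other pathway genes tested at this time, 4 of which had an unadjusted p below 0.05.

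The ML-792 change at 16 h and at 3.5 h without heat shock differed for 1 member in HCT116, where 2.4% of all genes differed, 1.12% higher and 1.28% lower. Libraries of 16 h and 3.5 h carry sample codes from different number ranges, and no batch is labelled. Time and experiment thus cannot be told apart. HERPUD1 was 28, 28.3 and 29.2 FPKM with ML-792 at 16 h, against 31.2, 28.9 and 30.6 FPKM with DMSO, and 23, 23 and 25.6 FPKM with ML-792 at 3.5 h, against 17.9, 20.5 and 20 FPKM with DMSO. Its difference, 16 h minus 3.5 h, was -0.36 ± 0.08 (adjusted p = 0.023). The call was lost with no filter and without any of 4 libraries, ML-792 replicate 2 and DMSO replicate 3 at 16 h and ML-792 replicate 3 and DMSO replicate 1 at 3.5 h (adjusted p = 0.0512 to 0.069).

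Heat shock of HCT116 cells in DMSO was followed by higher levels of a core of unfolded protein response genes. HERPUD1, EIF2AK3, HSPA5, XBP1 and HSP90B1 had the largest changes. Of the 37 members tested, 21 were higher and 2 were lower, where 49.5% of all genes changed, 28.9% higher and 20.6% lower. The split rests on how the libraries are scaled: median-of-ratios gave 18 higher and 2 lower, and equal totals 8 and 7. The members' median was 0.215 in the deposited FPKM, 0.159 with median-of-ratios and -0.024 with equal totals, and the median of all genes moved from 0.051 to 0.003 and -0.157. On all 3 scalings, 8 members were higher (EIF2AK3, XBP1, HSPA5, HSP90B1, MANF, CRELD1, PDIA3 and HERPUD1) and SSR1 and WFS1 were lower. The summed level of the heat shock marker list, cytosolic chaperone genes, was 9184 to 11432 FPKM with heat shock and 679.7 to 709 FPKM without in DMSO, and summed FPKM over all genes was 608121 to 732251 in heat-shocked libraries and 552951 to 575982 in the others. Their part in the result was not tested. Heat-shocked libraries carry sample codes from another number range than unshocked ones, and no batch is labelled, so heat shock and preparation cannot be told apart.

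**Figure D4:**
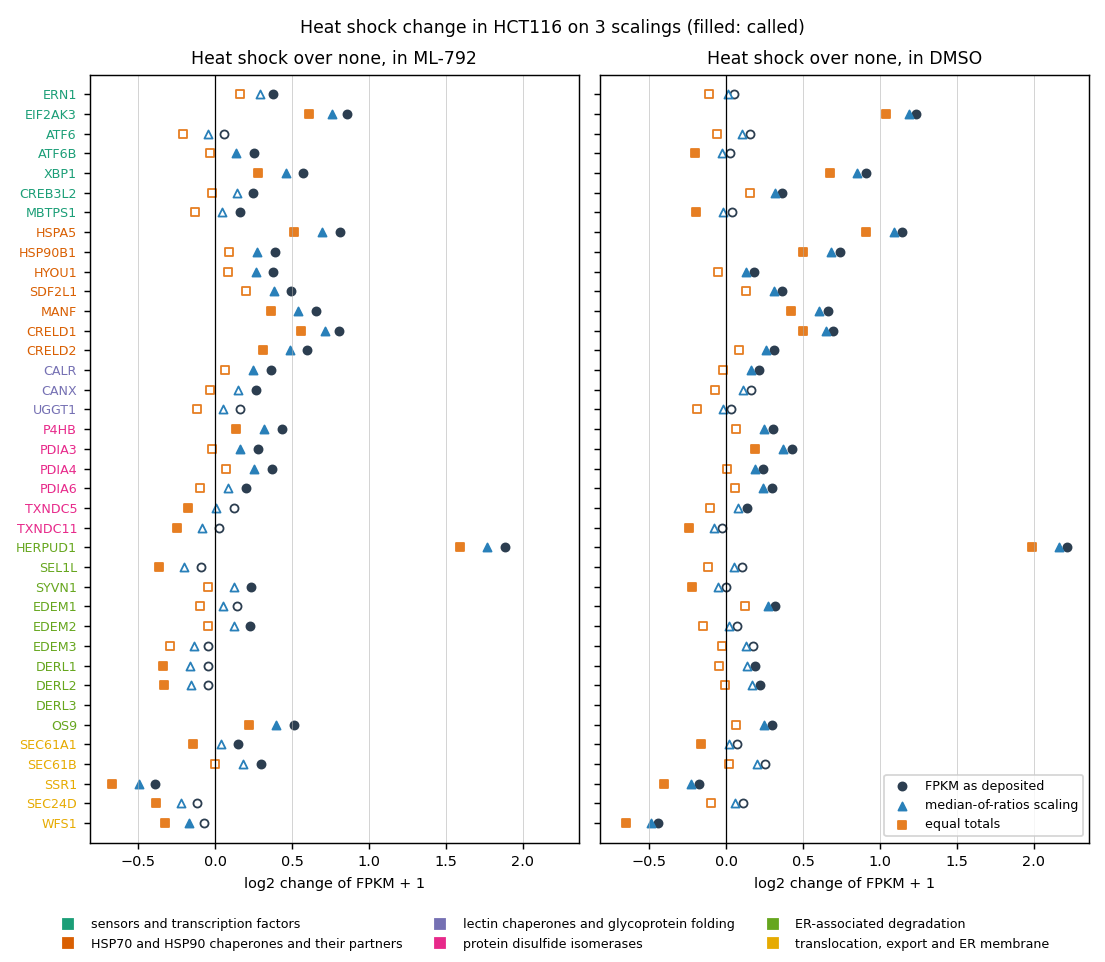
Change with heat shock over none in HCT116 for each tested member, in ML-792 on the left and in DMSO on the right, under the deposited FPKM (circles), median-of-ratios scaling (triangles) and equal totals (squares), filled where the adjusted p passed. HERPUD1, EIF2AK3, HSPA5 and XBP1 are filled above 0 on all scalings in both panels, while many smaller changes move across 0 with equal totals.

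HERPUD1 was the member with the largest heat shock change. In DMSO it stood at 80.2, 99 and 105 FPKM with heat shock, against 17.9, 20.5 and 20 FPKM without, a ratio of means of 4.86 (2.22 ± 0.10, adjusted p = 1.5e-09). EIF2AK3 stood at 8.61, 9.42 and 8.34 FPKM with heat shock, against 3.26, 3.08 and 3.15 FPKM without (1.23 ± 0.06, adjusted p = 6.6e-09). HSPA5 stood at 751, 859 and 879 FPKM with heat shock, against 365, 382 and 373 FPKM without, a ratio of means of 2.22 (1.15 ± 0.07, adjusted p = 2.5e-08). In these 3 genes the heat-shocked libraries lay far above the others. XBP1 stood at 46.5, 55 and 57.3 FPKM with heat shock, against 27.3, 28.1 and 27.5 FPKM without (0.91 ± 0.07, adjusted p = 4e-07). HSP90B1 stood at 814, 891 and 913 FPKM with heat shock, against 522, 522 and 520.0 FPKM without (0.74 ± 0.06, adjusted p = 4e-07). Again no library overlapped. The other sensors differed: ATF6 was 10.5, 10.1 and 8.75 FPKM with heat shock and 8.44, 8.89 and 8.61 FPKM without (0.16 ± 0.08, adjusted p = 0.1), and ERN1 3.26, 2.62 and 1.82 FPKM with heat shock and 2.31, 2.58 and 2.29 FPKM without (0.05 ± 0.11, adjusted p = 0.72). Neither passed, and both overlapped between groups. WFS1, at 5.25, 4.55 and 5.1 FPKM with heat shock, against 7.15, 7.2 and 6.97 FPKM without, was lower (-0.44 ± 0.06, adjusted p = 9.6e-05), and SSR1, at 18.5, 19 and 17.1 FPKM with heat shock, against 20.5, 21.3 and 20.4 FPKM without, was lower as well (-0.18 ± 0.06, adjusted p = 0.022).

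In ML-792, heat shock was followed by 25 higher members and 1 lower, where 61.7% of all genes changed, 39.3% higher and 22.3% lower. Median-of-ratios gave 16 higher and 2 lower, and equal totals 9 and 9, so the count's direction rests on the scaling here as well. On all 3 scalings, 9 members were higher (EIF2AK3, XBP1, HSPA5, MANF, CRELD1, CRELD2, P4HB, HERPUD1 and OS9) and SSR1 was lower. SEC61A1 was called in opposite directions on different scalings. HERPUD1 stood at 82.8, 92.5 and 96.7 FPKM with heat shock, against 23, 23 and 25.6 FPKM without (1.88 ± 0.10, adjusted p = 7.6e-09). HSPA5 stood at 763, 798 and 775 FPKM with heat shock, against 428, 449 and 454 FPKM without (0.81 ± 0.07, adjusted p = 6.5e-07). EIF2AK3 stood at 6.63, 6.85 and 7.55 FPKM with heat shock, against 3.31, 3.55 and 3.43 FPKM without (0.85 ± 0.06, adjusted p = 2.1e-07). In all 3 genes the groups were apart. CRELD1, an ER membrane protein with EGF-like repeats, stood at 5.9, 7.73 and 6.87 FPKM with heat shock, against 3.65, 3.44 and 3.29 FPKM without (0.81 ± 0.09, adjusted p = 6.5e-06), and MANF at 163, 169 and 140.0 FPKM with heat shock, against 99.1, 99.6 and 98.9 FPKM without (0.65 ± 0.09, adjusted p = 7.1e-05). SSR1 stood at 16, 15.2 and 17.5 FPKM with heat shock, against 21.6, 21.7 and 21.4 FPKM without (-0.39 ± 0.06, adjusted p = 0.00011). These groups were apart as well. The transcription factor XBP1 and the sensor ERN1 were higher in ML-792, and the sensor ATF6 was not called. XBP1 stood at 50.3, 53.7 and 53.7 FPKM with heat shock, against 34.5, 34.1 and 36.6 FPKM without (0.57 ± 0.07, adjusted p = 2.3e-05), and ERN1 at 3.19, 3 and 3.39 FPKM with heat shock, against 2.24, 2.1 and 2.34 FPKM without (0.38 ± 0.11, adjusted p = 0.012), both without overlap. ATF6 was 8.78, 7.51 and 9.22 FPKM with heat shock and 8.12, 8.28 and 7.95 FPKM without, with overlap and no call (0.06 ± 0.08, adjusted p = 0.54). Of the members higher with heat shock, 17 were so in both treatments, which is 68% of those in ML-792 and 81% of those in DMSO. These comparisons share no libraries. Of the 37 members tested, 25 were higher in ML-792 and 21 in DMSO, and the overlap was not counted over all genes.

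Within heat-shocked cells, ML-792 against DMSO gave 12 higher members and 3 lower, where 33.5% of all genes changed, 18.4% higher and 15.1% lower. With only these 2 groups in the fit, limma called none (10 had an unadjusted p below 0.05), and 255 genes were called in all, against 4083 with all 3.5 h groups; 7 to 21 members were called with single libraries left out. On all 3 scalings HYOU1, CRELD2, CALR and WFS1 were higher and EIF2AK3, HSP90B1 and DERL1 were lower. CRELD2 was 34.1, 41.9 and 33.8 FPKM with ML-792, against 26.9, 27.5 and 31.7 FPKM with DMSO (0.34 ± 0.09, adjusted p = 0.013). WFS1 was 6.33, 7.03 and 6.16 FPKM with ML-792, against 5.25, 4.55 and 5.1 FPKM with DMSO (0.33 ± 0.06, adjusted p = 0.004). CREB3L2 was 9.77, 9.02 and 10.1 FPKM with ML-792, against 8.19, 7.75 and 6.86 FPKM with DMSO (0.30 ± 0.07, adjusted p = 0.0079). In each, the ML-792 libraries were all above the DMSO libraries. DERL1, a membrane protein of the degradation channel, was 31, 31.6 and 37.8 FPKM with ML-792, against 40.6, 42 and 41.2 FPKM with DMSO (-0.30 ± 0.07, adjusted p = 0.0087). EIF2AK3 was 6.63, 6.85 and 7.55 FPKM with ML-792, against 8.61, 9.42 and 8.34 FPKM with DMSO (-0.29 ± 0.06, adjusted p = 0.0064). HSP90B1 was 770.4, 767 and 776 FPKM with ML-792, against 814, 891 and 913 FPKM with DMSO (-0.18 ± 0.06, adjusted p = 0.033). In these 3 genes every ML-792 library was below the DMSO libraries. SYVN1 was 14.3, 17.1 and 14.4 FPKM with ML-792, against 12.5, 11.7 and 12.5 FPKM with DMSO (0.29 ± 0.07, adjusted p = 0.011), with no overlap. HSPA5 (-0.09 ± 0.07), XBP1 (-0.004 ± 0.07) and HERPUD1 (-0.06 ± 0.10) overlapped between the groups and did not pass.

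**Figure D5:**
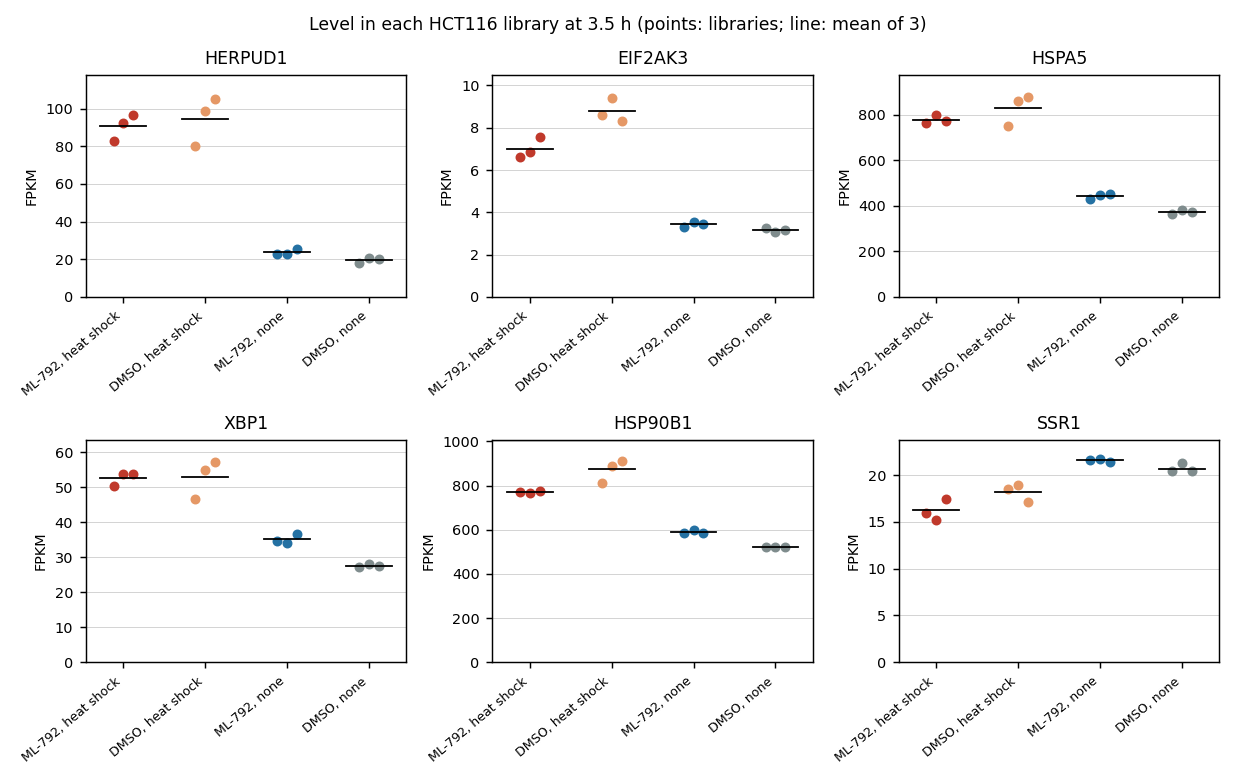
FPKM of HERPUD1, EIF2AK3, HSPA5, XBP1, HSP90B1 and SSR1 in HCT116 at 3.5 h, from left to right ML-792 with heat shock, DMSO with heat shock, ML-792 alone and DMSO alone, each point 1 library and each line the mean of 3. Heat-shocked libraries stand above the unshocked ones in every panel but SSR1, and EIF2AK3 and HSP90B1 are lower in ML-792 with heat shock than in DMSO with heat shock.

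The change with heat shock was tested for a difference between ML-792 and DMSO. It differed for 3 members, where 6.41% of all genes differed, 2.48% higher and 3.93% lower. The heat shock change was smaller in ML-792 for EIF2AK3 (-0.38 ± 0.09, adjusted p = 0.032) and HSP90B1 (-0.35 ± 0.08, adjusted p = 0.031). WFS1 had a less negative change in ML-792 (0.37 ± 0.09, adjusted p = 0.035), where it was 6.33, 7.03 and 6.16 FPKM with heat shock and 6.58, 7.11 and 6.95 FPKM without. HSPA5 (-0.34 ± 0.09, adjusted p = 0.0503), XBP1 (-0.34 ± 0.10, adjusted p = 0.056) and HERPUD1 (-0.34 ± 0.14, adjusted p = 0.12) did not pass. HSP90B1 kept its call on all 3 scalings. Between 0 and 9 members were called with single libraries left out.

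Of the 56 other pathway genes tested, heat shock was followed by 30 higher and 13 lower in ML-792 (76.8% called) and by 29 higher and 5 lower in DMSO (60.7% called), where 61.7% and 49.5% of all genes changed. Equal totals gave 11 higher and 20 lower in ML-792 and 11 higher and 14 lower in DMSO, so the direction of these counts rests on the scaling. The largest changes were in the list of genes downstream of PERK. PERK activity was not measured, and its part in these changes was not tested. ATF3 was 71.4, 92.7 and 87.7 FPKM with heat shock in ML-792, against 9.12, 9.52 and 10.2 FPKM without (2.99), and 83.8, 102 and 102 FPKM with heat shock in DMSO, against 6.99, 8.53 and 7.48 FPKM without (3.48 ± 0.10). PPP1R15A, a phosphatase subunit that restores translation, changed by 2.24 in ML-792 and 2.34 in DMSO, and DDIT3 by 1.80 and 2.06. Heat-shocked libraries stood above all others for ATF3, PPP1R15A and DDIT3. Genes of the BiP cochaperone list differed between treatments. The heat shock change was smaller in ML-792 for DNAJB9 (-0.91 ± 0.13, adjusted p = 0.0041) and more negative for DNAJC10 (-0.72 ± 0.12, adjusted p = 0.01). DNAJC10 in ML-792 was lower with heat shock, at 17.4, 15 and 20 FPKM, against 32, 31.6 and 30.4 FPKM without (limma adjusted p = 4.64e-06). In DMSO it was 27.3, 27.3 and 25.8 FPKM with heat shock and 30.9, 27.9 and 27.8 FPKM without, and was not called (adjusted p = 0.334). DNAJB9 was 5.65, 4.7 and 6.49 FPKM with heat shock in ML-792, against 6.24, 5.92 and 5.73 FPKM without, and 7.74, 9.49 and 8.87 FPKM with heat shock in DMSO, against 4.32, 4.46 and 4.54 FPKM without. Its libraries overlapped between shocked and unshocked cells in ML-792 and not in DMSO. With equal totals, limma also called DNAJC10 in DMSO (adjusted p = 0.0233) and DNAJB9 in ML-792 (adjusted p = 0.0151). The difference between treatments stayed called for both genes with equal totals. In all, 8 of the 56 differed, each with a more negative or smaller change in ML-792, where 6.41% of all genes differed, 2.48% higher and 3.93% lower. With single libraries left out, 2 to 14 of the 56 and 77 to 2520 of all genes were called, in place of 8 and 781, and DNAJB9 and DNAJC10 were called each time. Within heat-shocked cells, 2 of the 56 were higher and 13 were lower in ML-792 than in DMSO (26.8% called), where 33.5% of all genes changed. With only these 2 groups in the fit, 4 of the 56 were called, and 8 to 22 with single libraries left out.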

How the data were processed

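RNA sequencing libraries were made from poly(A) RNA with a stranded kit and read as paired 50-base reads, per the labels' protocols. The authors deposited 1 table of values that behave as FPKM, normalised for gene length and depth. The unit was read from the table and its values. Which aligner, genome build and gene models were used is not given in the sources used here. DESeq2 1.10.1 is named in the submitters' processing notes, with no role stated. No column of another series was present (0 sample columns unused).

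The members, gene lists and tests were chosen with earlier results of these data known. Groups came from the labels, which call the 3 libraries of a group biological triplicates. From the deposited FPKM, log2(FPKM + 1) was fitted in limma 3.58.1 (R 4.3.3) with moderated variances that follow the mean (trend) and resist extreme genes (robust). The 16 h fit held 18 libraries and 14251 genes, the 3.5 h fit 12 libraries and 12191 genes, and the fit of time 12 HCT116 libraries without heat shock and 12462 genes. Genes needed 1 FPKM in 3 libraries. P-values were adjusted by Benjamini-Hochberg over all genes of a fit, for 15 comparisons, 5 of them interactions. The scripts were tested on simulated data. All 38 members may be named. Values per library are given for the 3 sensors, XBP1, HSPA5, HSP90B1 and HERPUD1, and for the 5 called members with the largest change in a pair of groups and the 3 in an interaction. Other pathway genes are named by the largest called changes of their list, at most 3 a list, and DDIT3 and the genes low in the third ML-792 library of COLO205 were named after their values were seen. Alternatives were pseudocounts of 0.1 and 5, no filter, a filter at 5 FPKM, median-of-ratios scaling, equal totals, a plain variance model, only the groups compared, and each library left out. Counts of other pathway genes in the heat shock comparisons under other scalings, only the groups compared and each library left out were added after the data were seen, as were those in COLO205 without ML-792 replicate 3. Fragment depth was estimated from the values, since counts were not used here, so no counting interval is given. Promoter windows came from RefSeq (GRCh38.p14).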

Additional observations from a re-analysis of the deposited data

Results flagged for a closer look

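These results are set apart because the change under one treatment differed between lines, times or treatments by a test of the difference itself (limma, Benjamini-Hochberg over all genes). Between COLO205 and HCT116, 17 members (44.7%) differed in their ML-792 change, where 19.4% of all genes did. DERL3 (0.78 ± 0.09), PDIA4 (0.58 ± 0.07) and HSPA5 (0.52 ± 0.07) differed most. DERL3 was at or near 0 in HCT116, so its difference restates its change in COLO205. Between COLO205 and MDAMB231, 22 (57.9%) differed, where 26% of all genes did. MANF (0.65 ± 0.08), HSPA5 (0.64 ± 0.07) and HSP90B1 (0.60 ± 0.07) led these. Without the third ML-792 library of COLO205 these counts were 16 and 22. Between MDAMB231 and HCT116, 2 (5.26%) differed, CREB3L2 (-0.42 ± 0.08) and CANX (-0.21 ± 0.06). That share is below the 10.8% of all genes that differed. The call of CANX was lost with 9 of the 12 libraries left out singly.

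The heat shock change differed between ML-792 and DMSO for 3 members, EIF2AK3 (-0.38 ± 0.09), WFS1 (0.37 ± 0.09) and HSP90B1 (-0.35 ± 0.08). They are 8.11% of the members tested, near the 6.41% of all genes that differed. No member was called in this comparison when any of 7 libraries was left out, and up to 9 were called without another. The ML-792 change differed between 16 h and 3.5 h for 1 member (2.7%), where a similar 2.4% of all genes differed. That member was HERPUD1 (-0.36 ± 0.08). Its call was lost without any of 4 of the 12 libraries. Time and experiment cannot be told apart in this comparison.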

How the results depend on the processing

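Calls in COLO205 with ML-792 and in vehicle between lines kept within 1.5 times of their counts in all settings tried. MDAMB231 minus HCT116 gave 1 member with no filter, with median-of-ratios scaling, with equal totals and with the plain variance model, in place of 2. ML-792 at 3.5 h without heat shock gave 1 with no filter and 9 with only the groups compared, in place of 2. ML-792 within heat shock gave 0 with only the groups compared, in place of 15. Heat shock in DMSO gave 15 with equal totals, in place of 23. The median change of members with heat shock turned negative with equal totals, -0.032 in ML-792 and -0.024 in DMSO. The heat shock difference gave 1 with no filter, 5 with the 5 FPKM filter and 5 with median-of-ratios, in place of 3, and the time difference 0 with no filter, in place of 1. With single libraries left out, members called ranged from 7 to 12 in HCT116, 29 to 31 in COLO205, 2 to 5 in MDAMB231, 16 to 23 (COLO205 minus HCT116), 1 to 3 (MDAMB231 minus HCT116), 21 to 25 (COLO205 minus MDAMB231), 0 to 1 (3.5 h), 7 to 21 (ML-792 in heat shock), 22 to 28 (heat shock in ML-792), 17 to 23 (heat shock in DMSO), 0 to 9 (heat shock difference) and 0 to 3 (time difference). Over all genes, ML-792 called 1316 in place of 2101 in HCT116 at 16 h, 728 in place of 147 at 3.5 h and 255 in place of 4083 in heat shock with only the groups compared, and the heat shock difference 211 with no filter and 250 with equal totals in place of 781. Of 1563 values of named members under an alternative, 1440 kept their side of the threshold, 104 lost their call and 19 gained one. Of those called in either setting, 0 reversed direction. A change of sign in a value called in neither setting was not counted. The causes were not tested. No paired analysis was possible because no label carries a replicate number that pairs libraries of different groups.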

Other observations

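Of the 7 genes listed downstream of PERK, 6 were higher in COLO205 than in HCT116 in vehicle and none was lower, where 84.9% of all genes differed. All 7 were higher in COLO205 than in MDAMB231, where 86.4% of all genes differed, and 1 was higher and 5 were lower in MDAMB231 than in HCT116, where 83.6% did. The shares that differed are near the background. TRIB3 was 253, 271 and 261 FPKM in COLO205, 8.27, 8.19 and 8.56 FPKM in MDAMB231 and 20.9, 21.8 and 24.8 FPKM in HCT116. DDIT3 was 159.9, 173 and 173 FPKM in COLO205, 18, 16.8 and 18.2 FPKM in MDAMB231 and 24.5, 21.8 and 23.3 FPKM in HCT116. CHAC1 was 61.5, 84.1 and 89.6 FPKM in COLO205, 2.72, 2.57 and 2.87 FPKM in MDAMB231 and 11.6, 12.6 and 16.2 FPKM in HCT116. In all 3 genes the COLO205 libraries stood above every library of the other lines. CREB3L1, a membrane-bound factor of secretory cells, was highest in MDAMB231, at 42.4, 45 and 44.2 FPKM, against 0.286, 0.186 and 0.238 FPKM in HCT116.

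Across the 38 members, the ML-792 change in COLO205 was larger than in HCT116 in 32 and larger than in MDAMB231 in 34. Neither count was made over all genes, so they have no background. As a description over genes, which share libraries, the changes in HCT116 and COLO205 had a Pearson's r of 0.31 (Spearman 0.29). Those in HCT116 and MDAMB231 had 0.53 (Spearman 0.42). The heat shock changes in ML-792 and in DMSO had a Pearson's r of 0.89 over 37 members (Spearman 0.73).

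Of the 38 members, 7 were called in no line and at no time for ML-792 without heat shock: ATF6, ATF6B, SDF2L1, HERPUD1, EDEM2, DERL1 and WFS1. The same count was not made over all genes. HERPUD1 was called under 5 of 14 alternatives in MDAMB231, 2 of 14 in COLO205 and 1 of 14 at 3.5 h in HCT116.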
